A study of Mus musculus with 13 samples.

Results

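Macrophages of the mouse optic nerve were compared with the equal-weight mean of sciatic nerve macrophages and brain microglia, to find the genes whose level in the optic nerve lies outside the other 2 tissues and not between them. The optic nerve cells were represented by 4 of the 13 RNA sequencing libraries, chosen by their tissue label, and the contrast ran over all 13246 genes that passed the filter on low counts. The other libraries were 4 of sciatic nerve macrophages and 5 of brain microglia. Every library was labelled as total RNA from C57BL/6J mice, and the labels give no treatment, age, sex, sorting gate or number of animals for any tissue. They do not say that replicates came from separate animals, so the p-values measure the spread between these libraries, which may be technical.

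The optic nerve is a white matter tract of the central nervous system, in which oligodendrocytes wrap the axons of the retinal ganglion cells in myelin. Its resident macrophages are microglia, with border macrophages in its sheath and around its vessels. Macrophages take much of their expression programme from the tissue they live in. Microglia respond to changes around them by altering surface receptors, secreted signals and energy metabolism.

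The labelled cell type was checked against its markers. Csf1r, the receptor that macrophages need to survive, measured 6382 to 8248 CPM in optic nerve, 4150.4 to 5915 CPM in sciatic nerve and 4808 to 14631 CPM in brain, and all 15 macrophage identity genes had counts in the optic nerve. P2ry12, a receptor typical of microglia, measured 2325 to 2539.9 CPM in optic nerve, 128 to 158 CPM in sciatic nerve and 4841 to 10466 CPM in brain, so the optic nerve cells lay between the ends. Sall1, a transcription factor restricted to microglia, measured 14.8 to 53.4 CPM in optic nerve, 0.0666 to 0.216 CPM in sciatic nerve and 391 to 426 CPM in brain. Total counts ran from 10.9 to 23.5 M per library, with 16.5 to 20.4 M in the optic nerve, and no pair of libraries held identical values. Brain replicate 1 stood apart, with 3.79% of its counts in mitochondrial genes (0.410% to 1.23% in the other 12) and a mean correlation of 0.892 with the other brain libraries. Brain replicate 2 had the next lowest correlation within its group, 0.923. Results that rest on the brain libraries were therefore also computed without brain replicates 1 and 2.

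Against the mean of the other tissues, 1755 genes were higher in the optic nerve (13.2% of those tested) and 1070 were lower (8.08%), at an adjusted p under 0.05 (quasi-likelihood test of edgeR, Benjamini-Hochberg). Most of these calls came from genes that sit at one end. Of the 1755 higher genes, 796 differed from brain alone, 397 differed from sciatic nerve alone, and 213 lay between the 2 tissues. Only 335 were higher than in each tissue by its own pairwise test (2.53% of the genes tested, 19.1% of the higher genes). Of the 1070 lower genes, 310 were lower than in each tissue (2.34% of the genes tested, 29.0% of the lower genes), so that 645 genes in all lay outside both (4.87%). The count of genes lower than the mean moved most when 1 library was left out. It was 697 without optic nerve replicate 2 and 643 without optic nerve replicate 3, against 1070 with all libraries. When the larger of the 2 pairwise p-values of each gene was adjusted once over all genes, a stricter reading, 141 genes were higher than in each tissue (1.06%) and 91 were lower (0.687%). Without brain replicates 1 and 2 the counts by the pairwise rule were 587 and 480. In bulk RNA, fewer cells of a type and less RNA per cell cannot be told apart.

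Size and level differed between the directions. A gene's margin is the smaller in size of its 2 pairwise log2 fold changes, that is, its distance from the nearer tissue. The median margin was 0.86 for the 335 higher genes and -1.11 for the 310 lower genes. A margin of at least 1 was reached by 137 higher genes (1.03%) and 180 lower genes (1.36%). The higher genes were the more abundant, with a median level of 97.7 CPM (counts per 1e6 after TMM scaling) in the tissue where each was highest, against 37.2 CPM for the lower genes. Among genes with at least 100 CPM in 1 tissue, 165 of 2315 were higher than in each tissue (7.13%) and 73 were lower (3.15%). Of the 310 lower genes, 61 were under 10 CPM in every tissue and 38 had at most 3 counts over the 4 optic nerve libraries together. The 4 optic nerve libraries lay above all 9 others for 479 genes (3.62%) and below them for 225 (1.70%). Of the genes called against each tissue, 293 higher and 177 lower were also free of any overlap.

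**Figure D1:**
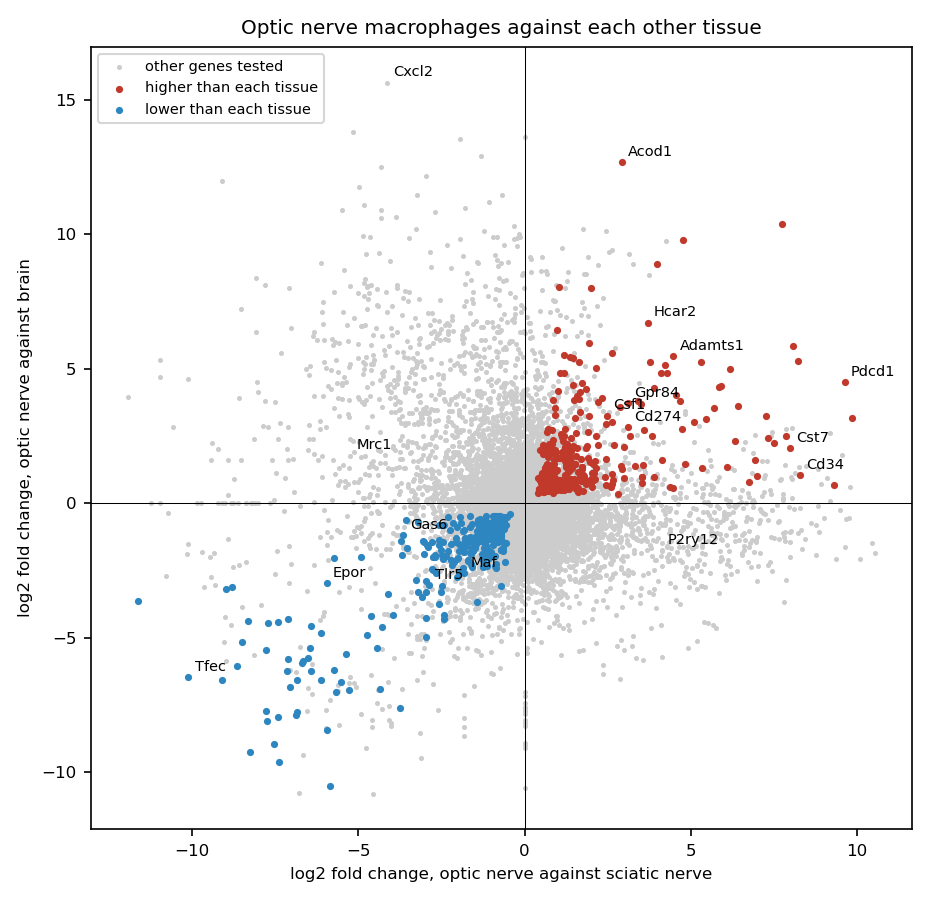
Each point is a gene. The x axis is the log2 fold change of optic nerve against sciatic nerve and the y axis that against brain, and colours mark the 335 genes higher and the 310 lower than in each tissue. Genes outside both tissues fill the upper right and lower left corners, and the genes in the other corners lie between the tissues.

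The 15 genes farthest above both tissues were taken by margin among genes with a mean of at least 10 CPM in 1 tissue and no overlap of optic nerve libraries with the others, so that the lack of overlap is part of the choice. They included immune receptors. Pdcd1 (chr1:94038305-94052553, GRCm38, minus strand) encodes PD-1, the inhibitory receptor best known from exhausted T cells. Pdcd1 measured 94.5, 140.5, 116 and 104 CPM in the optic nerve libraries, 0, 0.277, 0.216 and 0.0666 CPM in sciatic nerve and 6.80, 1.64, 3.68, 6.13 and 6.97 CPM in brain. No optic nerve library came near the others. The log2 fold change was 9.63 ± 0.62 against sciatic nerve and 4.50 ± 0.40 against brain (± SE, here and for every log2 fold change; larger adjusted p = 6.30e-07, quasi-likelihood test of edgeR, Benjamini-Hochberg). Cd244 measured 25.2, 19.8, 10.8 and 13.7 CPM in the optic nerve libraries, 0.719, 0.208, 1.44 and 0.333 CPM in sciatic nerve and 1.44, 1.28, 0.793, 1.29 and 1.42 CPM in brain. Cd244 encodes 2B4, a receptor of the SLAM family on natural killer and other immune cells, and its optic nerve values did not overlap with those of either tissue. Its log2 fold change was 4.68 ± 0.59 against sciatic nerve and 3.80 ± 0.51 against brain. Cd300lf, an inhibitory receptor of myeloid cells that binds lipids, measured 11.1 to 20.4 CPM in optic nerve, 0.277 to 5.80 CPM in sciatic nerve and 0.303 to 2.57 CPM in brain. Its call was lost without sciatic nerve replicate 1 or 3.

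Gpr84, Hcar2 and Olr1 of the 15 encode receptors for metabolites or lipids. Gpr84 (chr15:103308235-103310612, GRCm38), a receptor for medium-chain fatty acids that is induced in activated microglia, was the most abundant of the 15. Gpr84 measured 2432, 2438, 3416 and 2251 CPM in the optic nerve libraries, 352, 319, 331 and 215 CPM in sciatic nerve and 171, 166, 233, 206 and 232 CPM in brain. All 4 optic nerve libraries lay above every other library, and the log2 fold change was 3.11 ± 0.21 against sciatic nerve and 3.71 ± 0.19 against brain (larger adjusted p = 3.54e-08 by edgeR's quasi-likelihood test). Hcar2 encodes a receptor for hydroxybutyrate and niacin that acts against inflammation. Hcar2 measured 598, 640.1, 765 and 527 CPM in the optic nerve libraries, 42.3, 39.02, 61.6 and 51.1 CPM in sciatic nerve and 7.55, 1.03, 4.71, 5.60 and 11.5 CPM in brain. Sciatic nerve lay well above brain for this gene, and the optic nerve above both. Its log2 fold change was 3.71 ± 0.47 against sciatic nerve and 6.71 ± 0.49 against brain. Olr1, a scavenger receptor for oxidised low-density lipoprotein, measured 27.3 to 73.4 CPM in optic nerve, 0.761 to 7.66 CPM in sciatic nerve and 0 to 2.10 CPM in brain.

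Apoc1, a small apolipoprotein, had the largest margin of the 15. Apoc1 measured 18.5, 12.7, 10.9 and 11.7 CPM in the optic nerve libraries, 0.785, 0.484, 0.216 and 0.466 CPM in sciatic nerve and 0, 0, 0, 0.0379 and 0 CPM in brain. The brain libraries held 1 count together, which gives a ratio of 1539 with a 95% counting interval of 276 to 60859.5. The log2 fold change against sciatic nerve was 4.76 ± 0.61. Acod1 makes itaconate, a metabolite of activated macrophages. Acod1 measured 50.8, 44.6, 58.8 and 19.5 CPM in the optic nerve libraries, 4.77, 3.53, 6.33 and 8.19 CPM in sciatic nerve and 0 CPM in all 5 in brain. With 0 counts in brain, its level in the optic nerve was at least 1638-fold higher, taking 3 counts over the group as the floor. Against sciatic nerve its log2 fold change was 2.93 ± 0.41.

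The remaining genes of the 15 were enzymes, a signalling inhibitor and structural proteins. Adamts1, a secreted protease of the extracellular matrix, measured 185 to 271 CPM in optic nerve, 4.33 to 13.3 CPM in sciatic nerve and 1.36 to 6.86 CPM in brain. Its log2 fold change was 4.48 ± 0.44 against sciatic nerve and 5.47 ± 0.42 against brain, and no libraries overlapped. Socs2, an inhibitor of cytokine signalling, measured 7.99 to 25.6 CPM in optic nerve, 0.666 to 1.87 CPM in sciatic nerve and 0.189 to 1.96 CPM in brain. Haao, an enzyme of the kynurenine pathway that leads to quinolinic acid, measured 40.3 to 55.6 CPM in optic nerve, 0.133 to 3.18 CPM in sciatic nerve and 1.07 to 12.5 CPM in brain. Sec14l2, a lipid-binding protein, measured 14.1 to 19.1 CPM in optic nerve, 0 to 0.936 CPM in sciatic nerve and 1.77 to 2.64 CPM in brain. Ribc1, a protein of ciliary microtubules, measured 14.6 to 29.8 CPM in optic nerve, 0.327 to 3.74 CPM in sciatic nerve and 0.606 to 2.34 CPM in brain. Mobp is a myelin gene and is described with the markers of other cells. Across the 15 genes the larger pairwise adjusted p ran from 3.54e-08 to 0.0189 by edgeR's quasi-likelihood test. Under the stricter reading with 1 p-value per gene, Egln3 (adjusted p = 0.0991) and Cd300lf (0.111) were no longer called by that test.

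**Figure D2:**
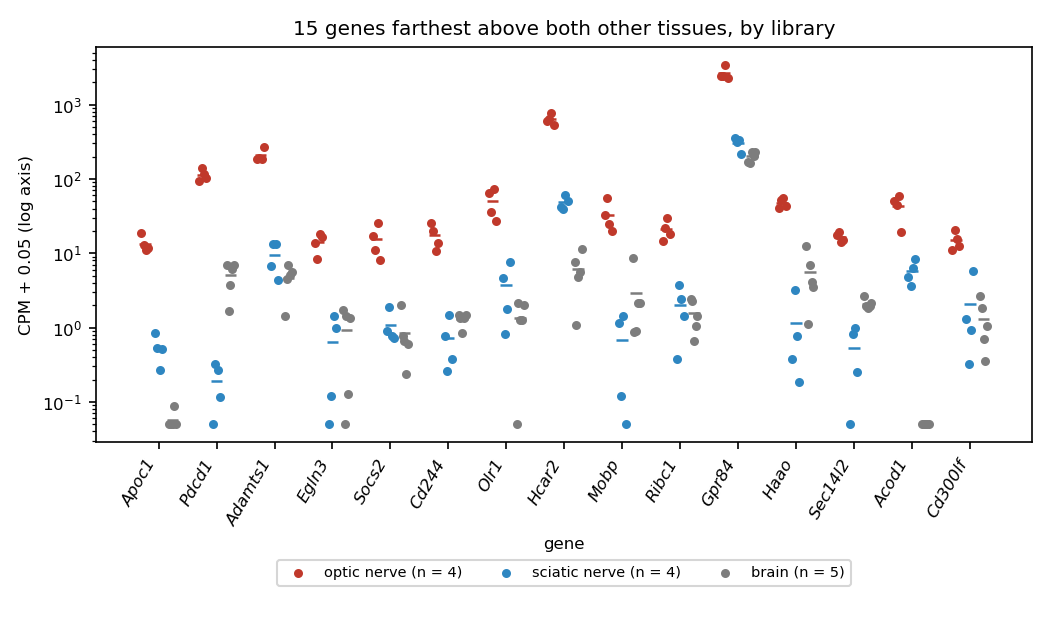
The 15 genes farthest above both tissues are shown by library, in CPM plus 0.05 on a log axis, with 4 optic nerve, 4 sciatic nerve and 5 brain points per gene and a dash at each group mean. Every optic nerve point of a gene lies above its sciatic nerve and brain points, and Gpr84 reaches the highest levels.

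Glycolysis was the list in which most members stood above both tissues. Glucose enters through Slc2a1, is broken down to pyruvate by a chain of enzymes, and leaves as lactate through Slc16a3 when oxygen is scarce or the cell is activated. Of the 18 genes on the list, all tested, 8 were higher in the optic nerve than in each tissue (44.4%, against 2.53% of all genes tested). Another 2 were higher than the mean alone, so 10 of 18 were higher than the mean, against 13.2% of all genes tested. Among genes with at least 100 CPM in 1 tissue, 7.13% were higher than in each tissue. The list was chosen with earlier results of these data known, so these shares are a description and no test. The median log2 difference from the mean was 0.75 over the list and 0.01 over all genes tested. The stricter reading called 6 of the 8, without Tpi1 and Eno1. The count ran from 7 to 9 over the alternatives tried. The summed level of the list was 2993 to 3823 CPM in optic nerve, 1807 to 2217 CPM in sciatic nerve and 1435 to 1695 CPM in brain, with no overlap between the optic nerve and the others.

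Slc2a1, Slc16a3 and Pfkfb3 differed most from the mean of the other tissues. Slc2a1 encodes the glucose transporter GLUT1. Slc2a1 measured 233, 257, 318 and 226 CPM in the optic nerve libraries, 40.5, 58.7, 56.9 and 32.98 CPM in sciatic nerve and 34.8, 81.4, 112, 96.01 and 93.03 CPM in brain. The lowest optic nerve library was above the highest of the other 9, which was a brain library. Its log2 fold change was 2.45 ± 0.30 against sciatic nerve and 1.63 ± 0.27 against brain. Slc16a3 encodes the lactate exporter MCT4. Slc16a3 measured 87.1, 90.4, 80.3 and 108 CPM in the optic nerve libraries, 11.1, 10.5, 13.2 and 11.3 CPM in sciatic nerve and 30.7, 51.4, 53.8, 50.9 and 55.5 CPM in brain. For this gene brain lay between the nerves, and the log2 fold change was 2.99 ± 0.21 against sciatic nerve and 0.91 ± 0.18 against brain. Pfkfb3 makes the activator of phosphofructokinase that sets the pace of the pathway. Pfkfb3 measured 236, 226, 278 and 199.8 CPM in the optic nerve libraries, 68.9, 72.2, 119 and 65.6 CPM in sciatic nerve and 60.5, 76.1, 93.9, 114 and 88.9 CPM in brain. The optic nerve libraries lay above all others and the ranges of sciatic nerve and brain overlapped, with a log2 fold change of 1.53 ± 0.23 against sciatic nerve and 1.44 ± 0.21 against brain.

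The other 5 of the 8 were enzymes of the lower pathway and differed less from the mean. Aldoa, which splits fructose bisphosphate, measured 531 to 633 CPM in optic nerve, 276 to 359 CPM in sciatic nerve and 232 to 307 CPM in brain. Pkm, which makes pyruvate, measured 319 to 432 CPM in optic nerve, 164 to 202 CPM in sciatic nerve and 116 to 163 CPM in brain. Ldha, which turns pyruvate into lactate, measured 611 to 907 CPM in optic nerve, 405 to 518 CPM in sciatic nerve and 155 to 234 CPM in brain. The log2 fold changes against sciatic nerve and brain were 0.85 and 0.98 for Aldoa, 0.97 and 1.25 for Pkm and 0.76 and 1.94 for Ldha. Tpi1, which interconverts the triose phosphates, had 0.59 and 1.15. Eno1, the enolase of the pathway, had 0.57 and 0.87, and its call was lost without sciatic nerve replicate 2, 3 or 4 or optic nerve replicate 3. Over the 8 genes the larger pairwise adjusted p ran from 1.47e-04 to 0.0208 by edgeR's quasi-likelihood test. All 4 optic nerve libraries lay above all 9 others for each of the 8. The list also held genes between the tissues. Hk2, a hexokinase, had log2 fold changes of 0.83 and -0.92 against sciatic nerve and brain, and Gpi1, the isomerase of the second step, -0.92 and 0.81.

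**Figure D3:**
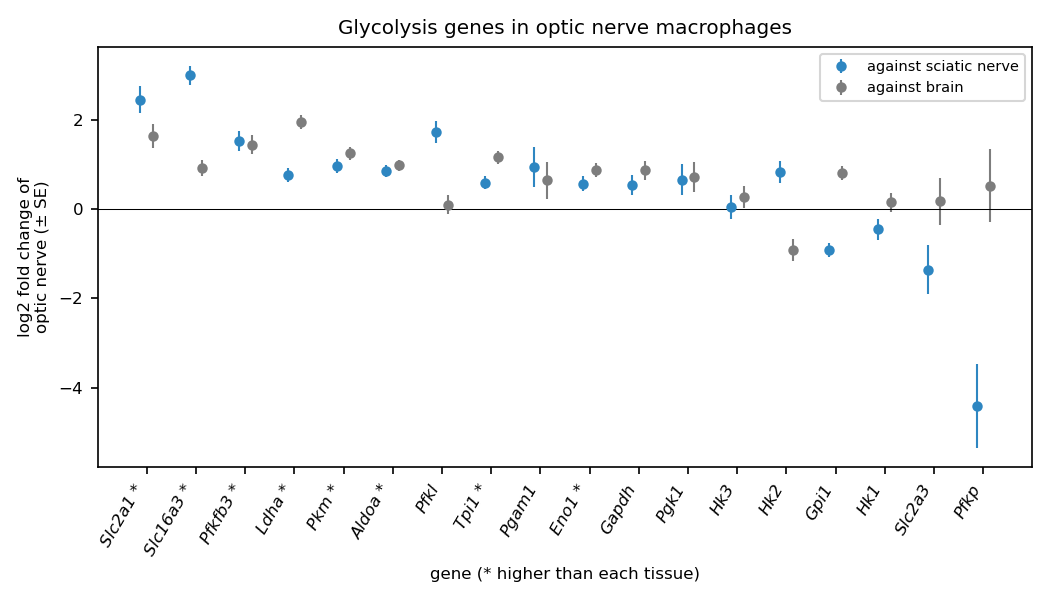
The y axis is the log2 fold change of optic nerve against sciatic nerve (blue) and against brain (grey), with bars of 1 SE, for the 18 genes of the glycolysis list in order of their difference from the mean. Both points lie above 0 for the 8 genes marked with an asterisk, which were called higher than in each tissue.

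Oxygen and protein levels were not measured, and the part of oxygen in the glycolysis values was not tested. The hydroxylase Egln3 (PHD3) and the transcription factor Hif1a belong to the cellular response to oxygen, and Hif1a binds the core letters ACGTG. Egln3 is a target gene of that factor and marks it for breakdown. Egln3 measured 8.28 to 18.1 CPM in optic nerve, 0 to 1.37 CPM in sciatic nerve and 0 to 1.66 CPM in brain. Its log2 fold change was 4.56 ± 1.25 against sciatic nerve and 4.01 ± 1.10 against brain. It is 1 of the 15 genes chosen for lack of overlap. Under the stricter reading its adjusted p was 0.0991 by edgeR's quasi-likelihood test. Hif1a itself measured 167 to 242 CPM in optic nerve, 84.02 to 145 CPM in sciatic nerve and 98.1 to 194 CPM in brain; it differed from sciatic nerve (log2 fold change 0.88 ± 0.23, adjusted p = 0.0134 by edgeR's quasi-likelihood test) but not detectably from brain (0.48 ± 0.22, adjusted p = 0.102). The 250 bases upstream of start sites were taken from RefSeq (GRCm38.p6) and searched on both strands for ACGTG. The sequences of 5 windows are printed 5′ to 3′ on the gene's strand as examples of matching windows, chosen after the matches were seen, with each match in capitals (CACGT is the match on the other strand). They are Slc2a1 (chr4:119108495-119108744, plus strand), Slc16a3 (chr11:120948817-120949066, plus strand), Pfkfb3 (chr2:11553930-11554179, minus strand), Ldha (chr7:46845554-46845803, plus strand) and Egln3 (chr12:54203875-54204124, minus strand).
Slc2a1: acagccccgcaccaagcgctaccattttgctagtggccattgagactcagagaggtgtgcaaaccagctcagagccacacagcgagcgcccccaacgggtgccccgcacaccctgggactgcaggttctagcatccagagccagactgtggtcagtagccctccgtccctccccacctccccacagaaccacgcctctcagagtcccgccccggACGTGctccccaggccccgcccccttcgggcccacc
Slc16a3: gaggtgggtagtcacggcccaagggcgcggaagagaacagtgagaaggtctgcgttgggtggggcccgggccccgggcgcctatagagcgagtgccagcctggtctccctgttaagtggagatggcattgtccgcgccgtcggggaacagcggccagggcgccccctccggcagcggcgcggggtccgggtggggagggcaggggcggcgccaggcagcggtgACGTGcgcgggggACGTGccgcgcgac
Pfkfb3: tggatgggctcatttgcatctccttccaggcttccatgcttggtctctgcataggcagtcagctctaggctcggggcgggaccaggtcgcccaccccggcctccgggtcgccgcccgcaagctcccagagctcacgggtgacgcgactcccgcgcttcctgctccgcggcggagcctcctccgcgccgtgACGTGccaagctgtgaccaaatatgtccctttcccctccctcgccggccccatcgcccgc
Ldha: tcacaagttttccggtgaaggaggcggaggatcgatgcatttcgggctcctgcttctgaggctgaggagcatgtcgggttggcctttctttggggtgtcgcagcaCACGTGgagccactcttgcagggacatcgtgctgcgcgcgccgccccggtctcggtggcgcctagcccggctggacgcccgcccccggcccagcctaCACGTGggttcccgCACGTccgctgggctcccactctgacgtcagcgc
Egln3: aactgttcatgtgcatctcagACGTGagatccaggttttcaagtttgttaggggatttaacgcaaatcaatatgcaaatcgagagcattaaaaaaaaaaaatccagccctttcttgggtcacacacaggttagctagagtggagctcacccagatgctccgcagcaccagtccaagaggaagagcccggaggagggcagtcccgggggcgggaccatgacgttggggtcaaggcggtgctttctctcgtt

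Of the 8 glycolysis genes above both tissues, 6 held ACGTG in at least 1 of their windows, in 8 of 15 windows (53.3%). By gene, 2382 of the 9453 tested genes with a window held a match. These 9453 genes had 12082 windows, and a gene with more windows has more places for a match. Windows 2 and 3 of Aldoa overlap and hold the same match, so the windows are not separate counts. The printed Ldha window holds CACGTG at 2 places, and window 2 of Pfkfb3, which is not printed, at 1. These letters read the same on both strands, so they match on each. Tpi1 and Eno1 held no match, and Ldha, Pkm and Aldoa each had another window without one. The same letters occurred in 16.6% of all 32851 windows and in 21.5% of the windows of tested genes. Over all genes higher than in each tissue the share was 22.7%, and over those lower than in each tissue 19.9%, so the motif's share in the whole higher set was close to that of all tested genes. The AP-1 letters TGANTCA were in 6.08% of the windows of the higher genes and 6.93% of those of the lower genes, against 4.38% of the windows of tested genes. A match is a description of the letters, and binding was not measured.

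Immune checkpoint genes were split between the directions. Of 23 genes on the list 18 were tested. Of these 3 were higher than in each tissue (Pdcd1, Cd274 and Lgals9; 16.7%, against 2.53% of all genes tested) and 1 was lower (Cd200r1; 5.56%, against 2.34%). The list had a median log2 difference from the mean of 0.28. Cd274 encodes PD-L1, the ligand of PD-1. Cd274 measured 55.1, 48.2, 111 and 40.5 CPM in the optic nerve libraries, 6.54, 13.1, 7.27 and 2.66 CPM in sciatic nerve and 8.61, 13.5, 7.74, 5.60 and 9.19 CPM in brain. Both the receptor and its ligand were thus above both tissues in the same libraries, with a log2 fold change for Cd274 of 3.11 ± 0.46 against sciatic nerve and 2.84 ± 0.41 against brain (larger adjusted p = 1.30e-04 by edgeR's quasi-likelihood test). The other ligand, Pdcd1lg2, did not pass the filter. Lgals9, a secreted lectin that binds the receptor TIM-3, measured 639 to 838 CPM in optic nerve, 274 to 325 CPM in sciatic nerve and 288 to 481 CPM in brain. Cd200r1, the receptor for the neuronal signal CD200, went the other way. Cd200r1 measured 4.38, 4.79, 5.75 and 10.8 CPM in the optic nerve libraries, 51.5, 38.9, 31.2 and 43.97 CPM in sciatic nerve and 15.2, 22.99, 27.7, 32.9 and 23.9 CPM in brain. Every optic nerve library lay below every other library, and the log2 fold change was -2.69 ± 0.32 against sciatic nerve and -1.94 ± 0.31 against brain. Lag3 and Havcr2 stood far above sciatic nerve, at 32.5 to 42.1 and 292 to 319 CPM, but their log2 fold changes against brain were 0.39 ± 0.30 and 0.02 ± 0.27 and were not called.

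Genes of white matter and disease-associated microglia were tested as a list of 21. Of these 4 were higher than in each tissue (Itgax, Cst7, Spp1 and Csf1; 19.0%, against 2.53% of all genes tested), and the stricter reading called the same 4 genes. Csf1 encodes the growth factor that feeds the receptor Csf1r. Csf1 measured 119, 159, 149.8 and 138 CPM in the optic nerve libraries, 25.2, 22.5, 19.4 and 33.7 CPM in sciatic nerve and 6.57, 13.03, 19.9, 17.8 and 16.8 CPM in brain. All optic nerve libraries lay several fold above the rest, with a log2 fold change of 2.49 ± 0.29 against sciatic nerve and 3.25 ± 0.27 against brain. Cst7, an inhibitor of lysosomal proteases, measured 42.7 to 70.6 CPM in optic nerve, 0 to 0.415 CPM in sciatic nerve and 9.20 to 20.7 CPM in brain. Itgax, the integrin CD11c, measured 18.2 to 38.2 CPM in optic nerve, 0.0692 to 0.999 CPM in sciatic nerve and 2.10 to 11.96 CPM in brain. Spp1, the secreted protein osteopontin, measured 113 to 152 CPM in optic nerve, 28.1 to 48.8 CPM in sciatic nerve and 3.09 to 8.44 CPM in brain, so its nearer tissue was sciatic nerve where that of Cst7 and Itgax was brain. The log2 fold changes were 7.98 and 2.04 for Cst7, 6.34 and 2.32 for Itgax and 1.74 and 4.46 for Spp1, against sciatic nerve and brain in that order.

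Most of that list sat at an end or between. Apoe, the main lipid carrier of the brain, measured 8573 to 11039 CPM in optic nerve, 20414 to 34113 CPM in sciatic nerve and 236 to 480.2 CPM in brain. Axl and Clec7a, a receptor for dying cells and one for glucans, were above brain by 4.16 ± 0.23 and 4.02 ± 0.19 in log2, while their log2 fold changes against sciatic nerve were 0.03 ± 0.22 and -0.41 ± 0.18 and were not called. Lpl and Igf1 lay below sciatic nerve and above brain.

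Antigen presentation showed a few members above both tissues. For MHC class II 3 of 12 tested genes were higher than in each tissue (25%, against 2.53% of all genes tested). They were processing genes and a regulator: Ctss, Ifi30 and H2-Ob. Ctss, the protease that trims the invariant chain, was among the most abundant genes. Ctss measured 25134, 23392, 26438 and 19966 CPM in the optic nerve libraries, 3419, 3033, 2782 and 3348 CPM in sciatic nerve and 6695, 8493, 10150.1, 9992 and 10175 CPM in brain. Even the lowest optic nerve library was well above the highest brain library, with a log2 fold change of 2.92 ± 0.17 against sciatic nerve and 1.38 ± 0.15 against brain. Ifi30, a reductase of endosomes, measured 131 to 193 CPM in optic nerve, 76.2 to 101 CPM in sciatic nerve and 62.6 to 93.00 CPM in brain. H2-Ob, a subunit of the inhibitor of peptide loading, measured 88.9 to 113 CPM in optic nerve, 19.8 to 28.4 CPM in sciatic nerve and 43.4 to 67.8 CPM in brain. Another 6 genes of the list lay between the tissues, and 3 of the list were lower than the mean. The summed level of the class II list was 22660 to 29030 CPM in optic nerve, where most of it was Ctss. The sum was far higher in sciatic nerve, at 66380 to 90950 CPM, and 7204 to 10800 CPM in brain. For MHC class I 3 of 16 were higher than in each tissue (18.8%, against 2.53% of all genes tested). B2m, the light chain, measured 5549 to 6987 CPM in optic nerve, 2693 to 4180.5 CPM in sciatic nerve and 2032 to 2325 CPM in brain. Tap1, a subunit of the peptide transporter, had log2 fold changes of 0.90 and 1.99 and lost its call without sciatic nerve replicate 1, 2 or 4 or optic nerve replicate 3. H2-Q6 has near-identical neighbours among the class I genes, so its reads may be split between copies. The stricter reading called B2m alone.

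Cytokines and growth factors had some members beyond both tissues. Of 19 tested cytokines 4 were higher than in each tissue (Il1a, Osm, Csf1 and Tnfsf8; 21.1%, against 2.53% of all genes tested) and 1 was lower (Il15; 5.26%, against 2.34%). The stricter reading called Il1a, Osm and Csf1, with adjusted p = 0.0848 for Tnfsf8 and 0.102 for Il15 by edgeR's quasi-likelihood test. Il1a, an alarm cytokine, was the most abundant. Il1a measured 5196, 6178, 6412 and 3718 CPM in the optic nerve libraries, 1648, 2195, 2245 and 2253 CPM in sciatic nerve and 111, 103, 124, 134 and 149.9 CPM in brain. Sciatic nerve was the nearer tissue and brain lay far below, with a log2 fold change of 1.37 ± 0.19 against sciatic nerve and 5.43 ± 0.20 against brain. Osm, a cytokine of the interleukin 6 family, measured 309 to 391 CPM in optic nerve, 144 to 199 CPM in sciatic nerve and 6.996 to 18.8 CPM in brain. Tnfsf8, the ligand of CD30, was at 0 counts in sciatic nerve and 1.96 to 10.4 CPM in the optic nerve, at least 119.6-fold higher. Brain was its nearer tissue, at 0.214 to 1.66 CPM, and the log2 fold change against brain was 3.17 ± 0.80. The Tnfsf8 call outside both was lost with the replicate number as a block. Of 16 tested growth factors 3 were higher than in each tissue (Pdgfa, Pdgfb and Osm; 18.8%, against 2.53% of all genes tested). Pdgfb, a ligand of the platelet-derived growth factor receptors, measured 133 to 162 CPM in optic nerve, 19.9 to 32.3 CPM in sciatic nerve and 78.7 to 110.2 CPM in brain. Pdgfa, which drives the division of oligodendrocyte precursors, measured 57.1 to 96.6 CPM in optic nerve, 24.2 to 31.3 CPM in sciatic nerve and 13.97 to 68.7 CPM in brain, so its range overlapped with brain replicate 1, and its call was lost without sciatic nerve replicate 2, 3 or 4 or optic nerve replicate 3. Its adjusted p under the stricter reading was 0.136 by edgeR's quasi-likelihood test. Gas6, the bridging ligand of Axl and Mertk, was the 1 growth factor lower than in each tissue (6.25%, against 2.34% of all genes tested). Gas6 measured 100.3, 74.9, 85.6 and 90.1 CPM in the optic nerve libraries, 1311, 1002, 1072 and 1000.0 CPM in sciatic nerve and 128, 209, 223, 207 and 238 CPM in brain. The optic nerve stood below brain and far below sciatic nerve, and the log2 fold change was -3.64 ± 0.20 against sciatic nerve and -1.20 ± 0.18 against brain.

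Lists of acute response genes differed from the mean mostly through one end. Over all genes tested, 13.2% were higher than the mean and 2.53% higher than in each tissue, with a median log2 difference of 0.01. Of 26 immediate early and dissociation response genes 25 were higher than the mean, with a median log2 difference of 2.48, but 1 (Ier5; 3.85%) was higher than in each tissue. Ier5 lost its call without sciatic nerve replicate 3 or 4 or optic nerve replicate 2 or 4. Under the stricter reading its adjusted p was 0.174 by edgeR's quasi-likelihood test. Fosb, a subunit of AP-1, measured 89.2 to 152 CPM in optic nerve, 251 to 313 CPM in sciatic nerve and 0 to 0.0356 CPM in brain, so the optic nerve lay below sciatic nerve (log2 fold change -1.31 ± 0.20). Ptgs2 and Cxcl2, an enzyme of prostaglandin synthesis and a chemokine, were at 0 counts in brain and lower in the optic nerve than in sciatic nerve, with log2 fold changes of -1.94 ± 0.25 and -4.13 ± 0.27. Of 20 NF-kappaB genes 18 were higher than the mean and 2 (Tnip1 and Icam1) higher than in each tissue, or 5 without brain replicates 1 and 2. Icam1, an adhesion molecule, measured 2596 to 3577 CPM in optic nerve, 1366 to 1935 CPM in sciatic nerve and 142 to 261 CPM in brain. Of 14 heat shock chaperones 12 were higher than the mean and 2 higher than in each tissue (Dnajb1 and Dnaja1), or 6 without brain replicates 1 and 2. The stricter reading called Dnajb1, with adjusted p = 0.0628 for Dnaja1 by edgeR's quasi-likelihood test. Dnajb1, a co-chaperone of HSP70, measured 899.9 to 1086 CPM in optic nerve, 285 to 381 CPM in sciatic nerve and 93.5 to 134 CPM in brain, with a log2 fold change of 1.52 ± 0.15 against sciatic nerve and 3.18 ± 0.15 against brain. How the cells were taken out of each tissue is not given in the labels, and the part of that step in these values was not tested.

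Adhesion and transcription genes had members in both directions. Cd34, a sialomucin of progenitors and endothelium, measured 634 to 661 CPM in optic nerve, 0.915 to 3.26 CPM in sciatic nerve and 253 to 376 CPM in brain, and its log2 fold change was 8.29 ± 0.33 against sciatic nerve and 1.04 ± 0.22 against brain. Of 21 tested adhesion and progenitor genes it was 1 of 3 higher than in each tissue, beside Icam1 and Itgax (14.3%, against 2.53% of all genes tested). The integrin gene Itga9 was lower (4.76%, against 2.34%). Of 25 tested macrophage transcription factors 1 was higher than in each tissue (Id2; 4%, near the 2.53% of all genes tested). Another 2 were lower (Maf and Tfec; 8%, against 2.34%). Id2, an inhibitor of basic helix-loop-helix factors, measured 1007 to 1778 CPM in optic nerve, 414 to 505 CPM in sciatic nerve and 25.9 to 51.1 CPM in brain. Its log2 fold change was 1.64 ± 0.22 against sciatic nerve and 5.25 ± 0.24 against brain. Of 20 lysosome genes 2 were higher than in each tissue, the proteases Ctsl and Ctsz (10%, against 2.53% of all genes tested). Ctsl measured 2327 to 3019 CPM in optic nerve, 572 to 928 CPM in sciatic nerve and 929 to 1714 CPM in brain. Ctsz measured 3069 to 3888 CPM in optic nerve, 954 to 1211 CPM in sciatic nerve and 2144 to 2571 CPM in brain.

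The 15 genes farthest below both tissues were chosen in the same way, with the same limit of 10 CPM. Tfec, a transcription factor of the MiT family, had the largest margin of them in size. Tfec measured 0, 0, 0 and 0.0592 CPM in the optic nerve libraries, 23.1, 19.3, 20.01 and 28.2 CPM in sciatic nerve and 0.755, 5.20, 2.43, 0.189 and 0.418 CPM in brain. The 4 optic nerve libraries held 1 count together. From counts pooled over each group and scaled by its depth, sciatic nerve was 1666 times as high, with a 95% counting interval of 298 to 65832, and brain 144 times, with an interval of 25.7 to 5730.2. Maf, a factor that holds back self-renewal in macrophages, is not 1 of the 15 and was named from the transcription factor list. It was lower in all 4 libraries too. Maf measured 79.9, 55.7, 69.6 and 72.8 CPM in the optic nerve libraries, 229.6, 264, 216 and 273 CPM in sciatic nerve and 837, 529, 231, 262 and 254 CPM in brain. Brain replicates 1 and 2 were the highest for Maf, and the optic nerve did not overlap with any other library. Its log2 fold change was -1.82 ± 0.35 against sciatic nerve and -2.60 ± 0.35 against brain (larger adjusted p = 0.00139 by edgeR's quasi-likelihood test).

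Receptors made up part of the genes lower than in each tissue. Tlr5 and Epor are among the 15, while Adgre1 and Stab1 were named from their lists. Tlr5 recognises bacterial flagellin. Tlr5 measured 2.97, 3.23, 2.79 and 2.31 CPM in the optic nerve libraries, 15.5, 11.8, 27.6 and 28.8 CPM in sciatic nerve and 28.3, 17.01, 26.3, 20.2 and 26.3 CPM in brain. The optic nerve values sat in a narrow range below all others, with a log2 fold change of -2.89 ± 0.32 against sciatic nerve and -3.06 ± 0.32 against brain. Epor, the erythropoietin receptor, measured 0 to 1.34 CPM in optic nerve, 23.9 to 49.3 CPM in sciatic nerve and 2.42 to 5.27 CPM in brain, with log2 fold changes of -5.95 and -2.98. Adgre1 encodes F4/80, a surface marker of mouse macrophages. Adgre1 measured 372, 457, 402 and 410.3 CPM in the optic nerve libraries, 1409, 1569, 2026 and 1698 CPM in sciatic nerve and 469, 626, 903, 939 and 865 CPM in brain. It was the 1 macrophage identity gene of 15 lower than in each tissue (6.67%, against 2.34% of all genes tested). Its log2 fold change was -2.03 ± 0.21 against sciatic nerve and -0.89 ± 0.20 against brain. Stab1, a scavenger receptor of tissue macrophages, measured 47.96 to 90.1 CPM in optic nerve, 293 to 489 CPM in sciatic nerve and 124 to 260.4 CPM in brain. Among the 16 border macrophage genes it was the only one outside both tissues (6.25% lower, against 2.34% of all genes tested), and the other 15 lay between them.

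Other genes of the lower set act in signalling, the matrix, cell division and DNA repair. Bank1, a scaffold first described in B cells, measured 11.3 to 26.5 CPM in optic nerve, 93.9 to 172 CPM in sciatic nerve and 80.9 to 111 CPM in brain, and its log2 fold change was -2.80 ± 0.30 against sciatic nerve and -2.44 ± 0.28 against brain. Nid2, a basement membrane protein, measured 2.31 to 3.88 CPM in optic nerve, 19.5 to 34.2 CPM in sciatic nerve and 22.1 to 43.7 CPM in brain. Rnf145, a ubiquitin ligase of the endoplasmic reticulum, measured 27.4 to 38.8 CPM in optic nerve, 96.1 to 169 CPM in sciatic nerve and 79.6 to 169.6 CPM in brain. Skp2, which targets cell cycle inhibitors for breakdown, measured 0 to 1.51 CPM in optic nerve, 3.89 to 7.39 CPM in sciatic nerve and 9.90 to 15.5 CPM in brain. Polk, a DNA polymerase that copies past damage, had log2 fold changes of -2.19 and -2.32 and lost its call without sciatic nerve replicate 3. Dnm1, the neuronal dynamin, measured 0 to 0.0558 CPM in optic nerve, 7.47 to 13.4 CPM in sciatic nerve and 0.114 to 3.10 CPM in brain. Its brain level came mainly from replicate 1, and its call was lost without brain replicates 1 and 2. Nhsl2, Zfp874b, Tbcel, Tgds, Zfp53 and Fam84b complete the 15, with margins from -3.07 to -2.02. Fam84b kept its call in 2 of the 13 settings that left out 1 library, those without optic nerve replicate 2 or brain replicate 2. Zfp874b and Zfp53 belong to a family of similar zinc finger genes whose reads may be split. Under the stricter reading 6 of the 15 were no longer called by edgeR's quasi-likelihood test: Tgds (adjusted p = 0.0691), Epor (0.0781), Skp2 (0.0853), Polk (0.0975), Dnm1 (0.131) and Fam84b (0.313).

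**Figure D4:**
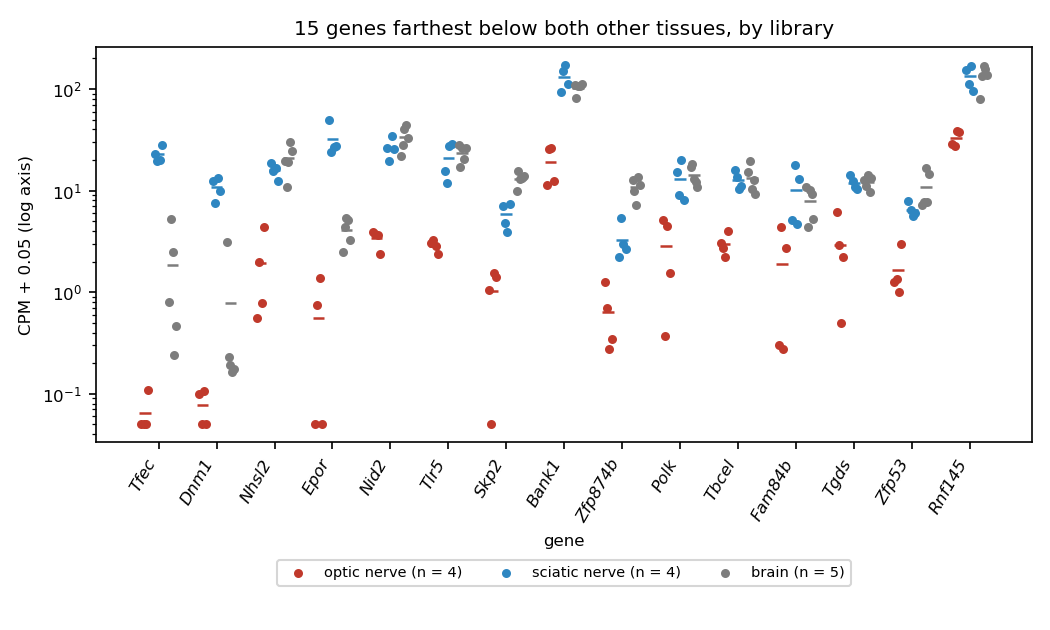
The 15 genes farthest below both tissues are shown by library, in CPM plus 0.05 on a log axis, with a dash at each group mean. All 4 optic nerve points lie below the sciatic nerve and brain points of the same gene, and Tfec, Dnm1, Epor and Skp2 are among the genes with optic nerve libraries at 0.

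Iron handling genes outside both tissues were lower and lipid handling genes mostly higher. Of 14 tested iron and haem genes 2 were lower than in each tissue (Hfe and Slc40a1; 14.3%, against 2.34% of all genes tested). Hfe restrains iron uptake. Hfe measured 85.4, 115, 103 and 99.1 CPM in the optic nerve libraries, 281, 263, 245 and 259 CPM in sciatic nerve and 226, 240.5, 290.5, 267 and 252 CPM in brain. The ends were alike for this gene and the optic nerve stood alone below them, with a log2 fold change of -1.38 ± 0.13 against sciatic nerve and -1.34 ± 0.13 against brain. Slc40a1, the iron exporter ferroportin, measured 61.9 to 93.6 CPM in optic nerve, 109.9 to 159 CPM in sciatic nerve and 252 to 517 CPM in brain, and its call was lost without sciatic nerve replicate 4 or optic nerve replicate 4. Of 20 tested lipid handling genes 3 were higher than in each tissue (Apoc1, Npc2 and Fabp3; 15%, against 2.53%) and 1 was lower (Abca1; 5.00%, against 2.34%). Under the stricter reading the adjusted p was 0.101 for Slc40a1 and 0.224 for Fabp3 by edgeR's quasi-likelihood test. Abca1, the exporter of cholesterol, measured 35.7 to 70.1 CPM in optic nerve, 84.9 to 141 CPM in sciatic nerve and 229.7 to 269 CPM in brain. Npc2, which carries cholesterol out of the lysosome, measured 1192 to 1519 CPM in optic nerve, 777 to 976 CPM in sciatic nerve and 492 to 612 CPM in brain. Fabp3, a fatty acid carrier, lost its call without any 1 of the optic nerve libraries, sciatic nerve replicates 1 to 3 or brain replicate 4. Of 14 tested axon guidance genes 3 were lower than in each tissue (Sema6d, Plxna1 and Nrp1; 21.4%, against 2.34% of all genes tested). Under the stricter reading their adjusted p-values were 0.0968, 0.321 and 0.131 by edgeR's quasi-likelihood test. Nrp1, a co-receptor for semaphorins, measured 133 to 189.7 CPM in optic nerve, 419 to 536 CPM in sciatic nerve and 193 to 236 CPM in brain. Its call was lost without optic nerve replicate 2 or 3. Plxna1 kept its call in 2 of the 13 settings that left out 1 library, those without optic nerve replicate 4 or brain replicate 1, and Sema6d lost it without optic nerve replicate 2.

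Of 16 tested toll-like receptor and adaptor genes, 1 was higher than in each tissue (Ticam1, 6.25%, against 2.53% of all genes tested). Another 2 were lower (Tlr5 and Ly96, 12.5%, against 2.34%), and the stricter reading did not call Ly96. Of 15 tested scavenging and efferocytosis genes, 1 was higher (Olr1, 6.67%) and 2 were lower (Gas6 and Stab1, 13.3%). The other lists of this paragraph held 1 gene or none outside both tissues, against 4.87% of all genes tested. A single gene of such short lists is near the background. The share higher than the mean was 13.2% over all genes tested. Of 18 microglia identity genes 15 were higher than the mean, 12 lay between the tissues and 1 (Gpr84) was higher than in each. Of 20 interferon response genes 12 were higher than the mean and 1 (Gbp2) higher than in each. Of 19 chemokines 10 lay between and 1 (Ccl5) was higher than in each. Gbp2 lost its call without sciatic nerve replicate 1 or 2 or optic nerve replicate 1 or 3, and Ccl5 without sciatic nerve replicate 1, 2 or 3 or optic nerve replicate 1 or 2. For the cell cycle, cholesterol synthesis and TGF-beta lists the count outside both tissues was 0 of 21, 14 and 13 genes by edgeR's quasi-likelihood test, and also 0 at unadjusted p-values under 0.05, by DESeq2 and by limma voom. For 18 ion channel genes it was 0 by edgeR, and 1 by DESeq2, by voom and at unadjusted p-values under 0.05. The gene that DESeq2 and voom called was Trpv2, a cation channel, named after its values were seen, with a log2 fold change of 0.76 and 0.50 against sciatic nerve and brain. Without brain libraries 1 and 2, 1 gene of TGF-beta signalling was higher and 1 lower than in each tissue, and 1 of cholesterol synthesis was higher. The eicosanoid and itaconate list had 1 of 15 (Acod1) higher than in each tissue by edgeR, 3 by DESeq2 and 4 by limma voom. Complement had 1 of 16, C1qb, at 12578 to 18666 CPM in optic nerve, 7648 to 10444 CPM in sciatic nerve and 8374 to 12308 CPM in brain. Purinergic signalling had 1 of 11, the adenosine receptor gene Adora1, at 3.52 to 9.23 CPM in optic nerve, 0 to 0.133 CPM in sciatic nerve and 0.0755 to 1.10 CPM in brain. Under the stricter reading Gbp2, Ccl5, C1qb and Adora1 had adjusted p = 0.143, 0.179, 0.0604 and 0.0576 by edgeR's quasi-likelihood test, while Gpr84 was called.

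**Figure D5:**
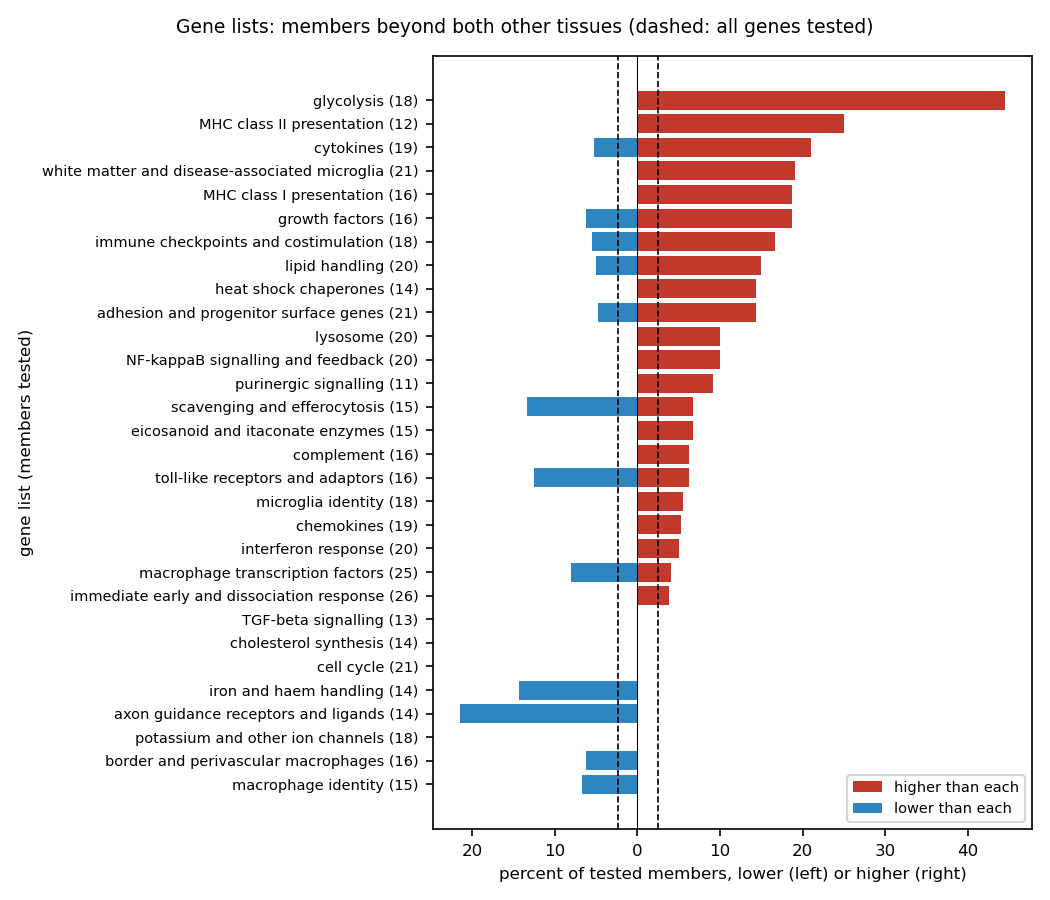
Bars give the percent of tested members of each gene list that were lower (left) or higher (right) in the optic nerve than in each other tissue, with dashed lines at the values for all genes tested, 2.34% and 2.53%. The glycolysis bar reaches 44.4% on the higher side. The lists were chosen with earlier results of these data known.

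Transcripts of other cells were read beside these results. Of 14 oligodendrocyte markers 7 were tested and 3 (Mbp, Mag and Mobp) were higher than in each tissue (42.9% of those tested, against 2.53% of all genes tested). Mobp measured 32.7, 55.7, 24.4 and 19.7 CPM in the optic nerve libraries, 1.11, 0.0692, 1.37 and 0 CPM in sciatic nerve and 8.61, 0.819, 0.839, 2.12 and 2.09 CPM in brain. The optic nerve libraries were the highest, and brain replicate 1 was next. Mbp, the main protein of compact myelin, measured 91.8 to 124 CPM in optic nerve, 41.3 to 67.5 CPM in sciatic nerve and 28.6 to 44.1 CPM in brain. Mag, an adhesion protein of myelin, measured 32.1 to 41.4 CPM in optic nerve, 6.80 to 10.5 CPM in sciatic nerve and 13.4 to 22.5 CPM in brain. Mog, a surface protein of myelin, was called in no contrast and measured 0 to 0.837 CPM in optic nerve, 0 to 3.86 CPM in sciatic nerve and 0 to 0.140 CPM in brain. The summed level of the 14 markers was 271 to 333 CPM in optic nerve, 170.5 to 239 CPM in sciatic nerve and 124 to 179 CPM in brain, with 3 of the 14 at 0 in the optic nerve. Its part in the results above was not tested.

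Gfap, the filament protein of astrocytes, measured 2.90 to 9.51 CPM in optic nerve, 0 to 0.0654 CPM in sciatic nerve and 0 to 0.454 CPM in brain, so it was low but higher than in each tissue. The summed astrocyte markers were 88.6 to 111 CPM in optic nerve, 23.2 to 94.9 CPM in sciatic nerve and 185 to 246 CPM in brain, with brain above the optic nerve. All 8 mast cell markers were at 0 in the optic nerve, 1 in sciatic nerve and 7 in brain. Of 10 neuronal markers 7 were at 0 in the optic nerve, 3 in sciatic nerve and 0 in brain. Of 11 neutrophil markers 8, 6 and 5 were at 0 in optic nerve, sciatic nerve and brain. The summed neutrophil markers were 166 to 324 CPM in optic nerve, 12.4 to 52.5 CPM in sciatic nerve and 178 to 295 CPM in brain. Nearly all of the optic nerve and brain sums was Csf3r, the receptor for granulocyte colony-stimulating factor, which microglia also express, at 165 to 324 CPM in optic nerve, 10.6 to 49.5 CPM in sciatic nerve and 178 to 295 CPM in brain. Csf3r and Retnlg, the 2 neutrophil markers tested, were higher than the mean and neither was outside both tissues. The summed fibroblast and meningeal markers were 13.3 to 42.1 CPM in optic nerve, 198 to 413 CPM in sciatic nerve and 3.17 to 8.33 CPM in brain. The summed lymphoid markers were 24.4 to 40.2 CPM in optic nerve, 42.2 to 60.2 CPM in sciatic nerve and 53.4 to 86.3 CPM in brain, with 5, 8 and 12 of the 16 at 0 in those groups. Most of each sum was Cd79b, a part of the B cell receptor, at 24.1 to 29.3 CPM in optic nerve, 33.1 to 43.04 CPM in sciatic nerve and 53.2 to 85.6 CPM in brain. Lymphoid cells are a well known source of PD-1, and their part in the Pdcd1 result was not tested.

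The sources used here do not give the strand setting of the counting. Exons of 38 of 164 genes with tabulated values and a position overlap those of a gene on the opposite strand in GENCODE M21. They include Nid2, Stab1, Tap1, Dnaja1, Adora1, Gas6, Fabp3, Ctsz, Aldoa, Tpi1, P2ry12 and Csf1r, and, with unnamed gene models, Gpr84, Gpi1, Cd274, Il1a, Icam1, Cd34, Slc2a1, Pdgfa and Maf. Reads of such pairs cannot be told apart if strand was ignored.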

How the data were processed

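RNA sequencing libraries of optic nerve macrophages (4), sciatic nerve macrophages (4) and brain microglia (5) were analysed from 1 table of raw read counts for 48587 gene symbols, deposited by the authors. Per the submitters' processing notes, the tools were STAR and featureCounts 1.5.1 and the build mm10. The sources used here do not give the STAR version, annotation, strand setting or treatment of reads with several matches. The nerve columns carry tissue initials and replicate numbers. The 5 columns with another prefix (SPF), which the labels do not explain, were taken as brain by elimination. Any difference in handling between the brain and nerve libraries cannot be told apart from tissue.

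edgeR 4.0.16 was run in R 4.3.3: filterByExpr by tissue (13246 genes kept), TMM scaling, and 1 quasi-likelihood fit over all 13 libraries with no block. The optic nerve was tested against the mean of the other tissues (weight 0.5 each) and against each of them, with Benjamini-Hochberg adjustment over all genes tested and calls at 0.05. A gene outside both tissues is called the same way in all 3 contrasts. Levels are CPM, scaled to 1e6 counts per library after TMM. A group with 0 counts was set to a floor of 3 counts over the group, which is 0.0409 CPM (optic nerve), 0.0512 CPM (sciatic nerve) or 0.0265 CPM (brain). Floors and the 95% intervals cover counting error only. The fit was tested on simulated data.

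Named genes are the 15 farthest above and the 15 farthest below both tissues by margin, with at least 10 CPM in 1 tissue and no overlap of libraries, up to 4 members of each list outside both tissues (otherwise the 2 most abundant), 5 genes per direction at an end, and label checks. Others were added by hand after their values were seen. Members and lists were chosen with earlier results of these data known. Alternatives were DESeq2 1.42.0, voom of limma 3.58.1, other scalings and filters, a replicate block, and fits without single libraries. Gene positions are from GENCODE M21, and promoter windows from RefSeq. Not every gene has a window there, and Hcar2 has none.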

Additional observations from a re-analysis of the deposited data

Results flagged for a closer look

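In 29 of 316 groups of 4 or 5 libraries with a mean of at least 1 CPM, 1 library lay far from the others of its tissue (Dixon's test at 95%). Chance gives about 1 in 20. The range of the other libraries of the tissue follows each value. Optic nerve replicate 1 stood apart for B2m (6987 CPM, above 5549 to 5784 CPM). Optic nerve replicate 3 stood apart for Gpr84 (3416 CPM, above 2251 to 2438 CPM), Tap1 (223 CPM, above 137 to 149 CPM) and Pkm (432 CPM, above 319 to 326 CPM). Optic nerve replicate 3 stood apart also for Cd79b (24.1 CPM, below 28.5 to 29.3 CPM) and Tpi1 (316 CPM, above 239 to 245 CPM). Optic nerve replicate 4 stood apart for Adamts1 (271 CPM, above 185 to 191 CPM), Nid2 (2.31 CPM, below 3.63 to 3.88 CPM) and Stab1 (90.1 CPM, above 47.96 to 53.3 CPM). Optic nerve replicate 4 stood apart also for Sema6d (5.03 CPM, above 0 to 0.538 CPM) and Havcr2 (292 CPM, below 314 to 319 CPM). The Sema6d value lay within the range of the brain libraries. Havcr2 and Cd79b are not among the genes outside both tissues, and the remaining optic nerve values stayed outside the ranges of both.

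Brain replicate 1 stood apart for Mobp (8.61 CPM, above 0.819 to 2.12 CPM), Gas6 (128 CPM, below 207 to 238 CPM) and Pkm (116 CPM, below 153 to 163 CPM). Brain replicate 1 stood apart also for Slc16a3 (30.7 CPM, below 50.9 to 55.5 CPM), Enpp2 (50.2 CPM, above 0.0466 to 6.89 CPM) and Aldoa (232 CPM, below 296 to 307 CPM). Brain replicate 1 stood apart also for Hk2 (332 CPM, above 144 to 175 CPM). Brain replicate 2 stood apart for Bank1 (80.9 CPM, below 106 to 111 CPM), Tpi1 (142 CPM, above 107 to 116 CPM) and Apoe (480.2 CPM, above 236 to 305 CPM). Brain replicate 3 stood apart for Cd244 (0.793 CPM, below 1.28 to 1.44 CPM). Brain replicate 1 thus held 7 of the 11 such values in brain, with the myelin gene Mobp and the hexokinase gene Hk2 high and the glycolysis genes Pkm, Slc16a3 and Aldoa low. Sciatic nerve replicate 1 stood apart for Epor (49.3 CPM, above 23.9 to 27.6 CPM), Il1a (1648 CPM, below 2195 to 2253 CPM) and Fosb (251 CPM, below 305 to 313 CPM). Sciatic nerve replicate 2 stood apart for Socs2 (1.87 CPM, above 0.666 to 0.850 CPM). Sciatic nerve replicate 3 stood apart for Ifi30 (76.2 CPM, below 96.8 to 101 CPM), Pfkfb3 (119 CPM, above 65.6 to 72.2 CPM) and Lpl (277 CPM, below 555 to 588 CPM).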

How the results depend on the processing

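The counts of genes higher and lower than the mean and higher and lower than in each tissue were 1755, 1070, 335 and 310. With 1 library left out they ran from 1376 to 2060, 643 to 1326, 239 to 442 and 212 to 416. DESeq2 called 1607 genes lower than the mean. Without brain replicates 1 and 2, 587 and 480 genes were higher and lower than in each tissue, with 1 test per gene 141 and 91, and with a margin of at least 1 in log2 137 and 180. The share of higher genes among those outside both tissues was 51.9%, and 63.2% with limma voom and 45.4% with DESeq2. Replicate numbers did not pair the libraries (correlation of deviations -0.0776 to 0.0773, 3 of 12 best with their own number). With the number as a block the counts were 1464, 747, 256 and 211. Over 3600 values of named genes in the contrast with the mean under the alternatives, 3527 kept their direction and side of the threshold. In that contrast 64 lost a call and 9 gained one, and none reversed. The calls outside both tissues were less stable. Of 105 named genes with such a call, 95 kept it without optic nerve replicate 3, and 105 kept it with DESeq2. Plxna1 lost it in 14 settings, Fam84b in 12, Fabp3 in 11 and Ly96 in 8. Low depth limits the genes near 0 in a tissue, whose fitted fold changes are no bounds.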

Other observations

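Further genes below the first 15 by margin were picked after their values were seen. Among higher genes, Tnfsf13b encodes the B cell survival factor BAFF and measured 103 to 127 CPM in optic nerve, 24.01 to 40.6 CPM in sciatic nerve and 15.8 to 20.6 CPM in brain. F3, the tissue factor that starts coagulation, measured 46.2 to 125 CPM in optic nerve, 17.9 to 20.1 CPM in sciatic nerve and 0.626 to 4.13 CPM in brain. Htra3, a secreted protease, measured 35.9 to 74.1 CPM in optic nerve, 0.133 to 0.792 CPM in sciatic nerve and 7.22 to 11.7 CPM in brain. Treml2 and Fgr, a myeloid receptor and a kinase of the SRC family, had log2 fold changes of 7.51 and 2.24 and of 3.59 and 2.72, against sciatic nerve and brain in that order. Among lower genes, S1pr1 and S1pr2, receptors for sphingosine 1-phosphate, measured 23.9 to 29.1 and 4.48 to 7.99 CPM in the optic nerve. Their log2 fold changes were -1.61 and -2.26 for S1pr1 and -1.97 and -1.78 for S1pr2. Sesn1, a stress-induced regulator of growth signalling, measured 36.2 to 75.03 CPM in optic nerve, 157 to 201 CPM in sciatic nerve and 134 to 323 CPM in brain. Clec4a3, a C-type lectin receptor with close relatives in the genome, measured 49.7 to 61.3 CPM in optic nerve, 341 to 494 CPM in sciatic nerve and 122 to 200.3 CPM in brain. All 4 optic nerve libraries lay outside the range of the other 9 for each of these genes.

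The genes with the largest difference from the mean that were not outside both tissues sat at an end. Sphk1, the kinase that makes sphingosine 1-phosphate, measured 51.1 to 132 CPM in optic nerve, 65.8 to 108 CPM in sciatic nerve and 0 CPM in every brain library, so the ranges of the 2 nerves overlapped. Rgcc, a regulator of the cell cycle, measured 10.5 to 25.1 CPM in optic nerve, 14.1 to 42.6 CPM in sciatic nerve and 0 CPM in every brain library. On the other side, Ptger3, a receptor for prostaglandin E2, measured 0 CPM in optic nerve, 0 to 0.523 CPM in sciatic nerve and 7.43 to 19.4 CPM in brain. Cyp2j6, Slc7a13 and Mill2 measured at most 0, 0.0592 and 0.0503 CPM in the optic nerve, and reached 18.3, 41.6 and 21.9 CPM in sciatic nerve. Enpp2, which makes lysophosphatidic acid, was at 0 in the optic nerve and at 0.0466 to 50.2 CPM in brain, with the highest value in replicate 1.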
